A study of Mus musculus with 5 samples.

Results

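Among the transcripts of brown adipose tissue (BAT), 10 genes of amino acid transport were followed here, namely 9 members of the SLC7 family (Slc7a1, Slc7a2, Slc7a3, Slc7a5, Slc7a6, Slc7a7, Slc7a8, Slc7a10 and Slc7a11) and Slc3a2. They were taken by name from the 52022 genes of the GENCODE M21 annotation, as the cationic and heteromeric transporters of the family and the protein chain that most of the heteromeric ones share. All 10 passed the filter of at least 10 counts in 2 or more libraries, as did 16450 genes in all, and their annotation holds 61 transcripts. BAT RNA came from 3 ATF4 BKO mice and 2 WT mice on a C57Bl/6J background, labelled male. Mice of both groups were 10 to 12 weeks old, carried loxP-flanked Atf4 alleles (Atf4 fl/fl), and were kept for 7 days at 30 °C and then for 3 days at 4 °C with free access to food. ATF4 BKO mice also expressed Cre recombinase from the Ucp1 promoter, whereas the WT littermates lacked Cre. This promoter drives Cre in thermogenic adipocytes, while the libraries were made from whole tissue, so every value is a sum over adipocytes and the other cells of BAT, and fewer cells of a type cannot be told apart from less RNA per cell. The comparison asks which of the transporters differ between these genotypes in BAT of cold-exposed mice. Presence of Cre and deletion of Atf4 go together here and cannot be told apart.

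SLC7 proteins carry amino acids across the plasma membrane. The cationic transporters Slc7a1, Slc7a2 and Slc7a3 work alone and bring arginine, lysine and ornithine into the cell. The heteromeric transporters are light chains that need a glycoprotein, the heavy chain, to reach the membrane. Slc3a2, also known as 4F2hc or CD98, is the heavy chain of Slc7a5, Slc7a6, Slc7a7, Slc7a8, Slc7a10 and Slc7a11, and these light chains exchange 1 amino acid for another. ATF4 is the transcription factor of the integrated stress response, whose known targets in many cells include transporters and enzymes that raise the supply of amino acids.

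Atf4 itself had 32.6, 52.6 and 23.5 CPM (counts scaled to library size after TMM normalization) in ATF4 BKO replicates 1, 2 and 3 and 285.7 and 226.4 CPM in WT replicates 1 and 2. Every ATF4 BKO library thus lay below both WT libraries, which matches the labels. Total estimated counts ranged from 24698337 to 32452751 per library. ATF4 BKO replicate 1 went against its male label, with 4598 counts of the X-linked RNA Xist against at most 7 elsewhere and 34 counts on 4 Y-linked genes against at least 3284. WT replicate 2 stood apart by RNA of skeletal muscle: the mean log2 CPM of the muscle markers tested was 6.27 there and 2.11 in WT replicate 1, while the ATF4 BKO libraries ranged from -1.28 to 0.61. Fold changes of the 10 genes without these libraries are given with the muscle markers.

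For most of the 10 transporter genes the values of the ATF4 BKO and WT libraries overlapped. By CPM, Slc7a1 and Slc7a5 were lower in every ATF4 BKO library than in both WT libraries. This is 2 of 10 genes, beside 10.6% of all genes tested. No transporter gene was higher in every ATF4 BKO library (8.98% of all genes). Log2 fold changes (ATF4 BKO minus WT) ranged from -2.01 for Slc7a5 to 0.83 for Slc7a8, with a median of -0.28 over the 10 genes and 0.0077 over all genes tested. Below 0 were 6 of the 10 genes, beside 48.8% of all genes. With edgeR's quasi-likelihood test and Benjamini-Hochberg adjustment over all genes, 0 of the 10 passed the threshold of 0.05, where 0.00608% of all genes (1 gene) did. Before adjustment, 3 of the 10 had an edgeR p under 0.05 (Slc7a1, Slc7a5 and Slc7a11), all with lower levels in ATF4 BKO mice, beside 5.23% of all genes in either direction and 3.42% of all genes for lower levels. DESeq2, the study's tool, called Slc7a1 alone, beside 0.736% of all genes.

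**Figure D1:**
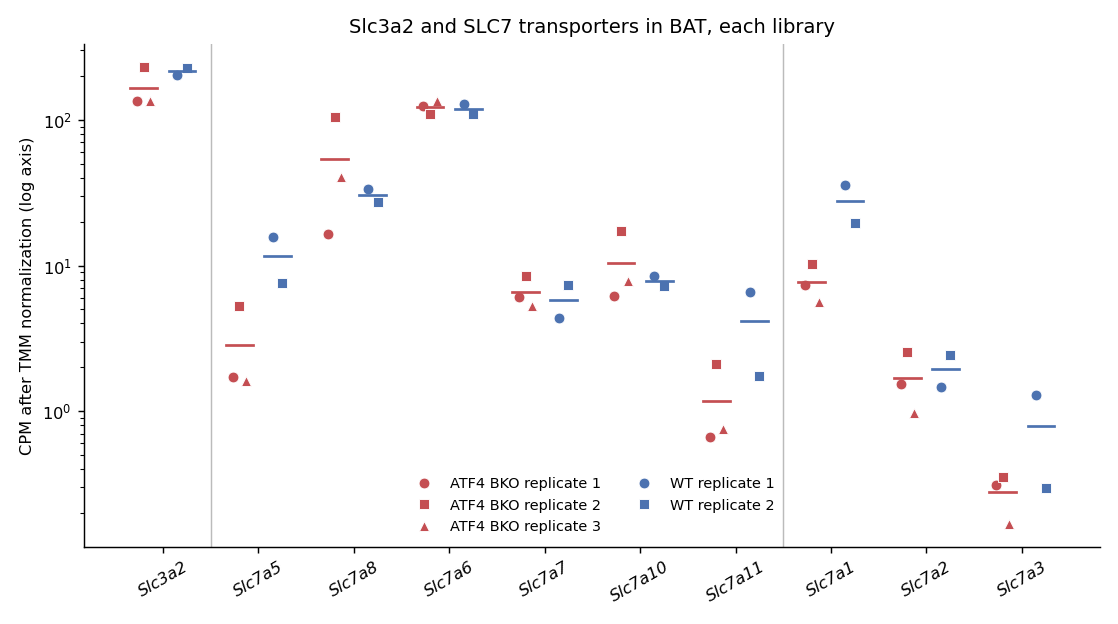
CPM of the 10 transporter genes in each library on a log axis, with ATF4 BKO libraries in red, WT libraries in blue and group means as lines. Grey lines part the heavy chain, the light chains and the cationic transporters. Both WT points lie above all 3 ATF4 BKO points for Slc7a5 and Slc7a1 alone, and the highest points of Slc7a8 and Slc7a10 are those of ATF4 BKO replicate 2 (104.9 and 17.3 CPM).

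Per length, the heavy chain was by far the most abundant. In TPM, which scales counts for transcript length and library size, the WT mean of Slc3a2 was 220.2 ± 23.0 (SD, n = 2), followed by Slc7a6 with 47.4 ± 3.07, Slc7a8 with 9.71 ± 1.06 and Slc7a10 with 8.14 ± 0.79. Slc7a5 with 5.22 ± 1.94, Slc7a1 with 4.93 ± 1.86 and Slc7a7 with 3.83 ± 1.37 came next, and neighbours among these 3 overlapped between the WT libraries. Slc7a3 (0.98 ± 0.28), Slc7a11 (0.65 ± 0.49) and Slc7a2 (0.32 ± 0.12) were the lowest, and neighbours among them overlapped between the WT libraries. In ATF4 BKO mice the first 4 genes kept their order, although Slc7a8 and Slc7a10 overlapped there. Slc7a5 moved from the rank of 5 to that of 7 with 0.98 ± 0.77 TPM (SD, n = 3), below Slc7a7 (3.93 ± 1.26) and, with overlap, Slc7a1 (1.27 ± 0.42). Of the summed TPM of the 10 genes, Slc3a2 and Slc7a6 made up between 80.45% and 89.97% in each library.

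Slc7a1, or CAT-1, is the widely expressed importer of arginine and lysine. Its gene (ENSMUSG00000041313.14) lies on the minus strand of chromosome 5 from 148327410 to 148399904 in GRCm38. It had 167, 288 and 168 estimated counts in ATF4 BKO replicates 1, 2 and 3 and 1120 and 664 in WT replicates 1 and 2. In CPM these are 7.36, 10.25 and 5.65 against 35.4 and 19.6, so that the groups did not overlap and the 2 WT libraries were themselves 1.81-fold apart. The mean of ATF4 BKO mice (7.76 ± 2.33 CPM) was 28.2% of that of the WT libraries (27.5 ± 11.2 CPM). The log2 fold change was -1.83 (standard error, SE, 0.34), with an adjusted p of 0.696 from edgeR and 0.00068 from DESeq2. Over all alternatives its adjusted p reached 0.997, and the log2 fold change stayed between -2.21 and -1.33 when each library was left out in turn. The library names carry 2 prefixes whose meaning is not given. Within the first (ATF4 BKO replicates 1 and 2, WT replicate 1) the log2 ratio of mean CPM was -2.01, and within the second (ATF4 BKO replicate 3, WT replicate 2) it was -1.79.

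The other cationic transporters were sparse. Slc7a3 (CAT-3, ENSMUSG00000031297.14, chromosome X from 101079210 to 101086020) had 7, 10 and 5 counts in ATF4 BKO replicates 1, 2 and 3 and 41 and 10 in WT replicates 1 and 2. By counts WT replicate 1 alone stood above the rest, and the log2 fold change of -1.51 (SE 0.72) became -0.09 without it. By TPM both WT libraries (1.18 and 0.78) lay above all ATF4 BKO libraries (0.42, 0.21 and 0.49), although these values rest on the same few counts. Slc7a2 (CAT-2, ENSMUSG00000031596.15, chromosome 8 from 40862396 to 40922308) had 35, 72 and 29 counts against 46 and 82, with a log2 fold change of -0.19 (SE 0.48). Its groups overlapped, and the log2 ratio was 0.49 for the first name prefix but -1.31 for the second. Adjusted p-values from edgeR were 0.911 for Slc7a3 and 0.976 for Slc7a2. By TPM, Slc7a1 gave 64.7%, 72.9% and 57.7% of the 3 cationic transporters in the ATF4 BKO libraries and 81.5% and 75.3% in the WT libraries. This share was lower in all 3 ATF4 BKO libraries, by 13.3 percentage points on average (65.1% against 78.4%). An exact permutation test, two-sided, gave p = 0.2, the smallest that 10 splits of 5 libraries allow. The nearest values were 72.9% in ATF4 BKO replicate 2 and 75.3% in WT replicate 2. The share also rests on few counts of Slc7a3, whose TPM was 0.491 from 5 counts in ATF4 BKO replicate 3. In ATF4 BKO replicate 2 the TPM of Slc7a3 was 0.207 from 10 counts.

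The heavy chain Slc3a2 (ENSMUSG00000010095.13, minus strand of chromosome 19 from 8706882 to 8723369) had 135.1, 231.2 and 134.0 CPM in ATF4 BKO replicates 1, 2 and 3 and 204.4 and 226.7 in WT replicates 1 and 2. ATF4 BKO replicate 2 reached the WT level, while the other ATF4 BKO libraries were lower. The log2 fold change was -0.37 (SE 0.27, edgeR adjusted p = 0.927), and -0.66 without ATF4 BKO replicate 2. With the muscle level as a covariate the direction turned, to 0.13. The ratio of Slc3a2 to its light chains separated the groups, although Slc3a2 TPM alone did not. In ATF4 BKO replicate 2 it was 219.8 TPM, between the WT values of 203.9 and 236.5. Slc7a8 and Slc7a10, light chains in the sum, had their highest TPM in that library (32.3 and 21.1). The ratio of Slc3a2 TPM to the summed TPM of the 6 light chains was 1.95, 2.16 and 1.77 in the ATF4 BKO libraries and 2.61 and 3.29 in the WT libraries. All 3 ATF4 BKO ratios were below both WT ratios, with a mean difference of -0.59 on the log2 scale (exact permutation test, two-sided, p = 0.2, again the smallest possible).

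Among the light chains, Slc7a5 and Slc7a8 exchange large neutral amino acids such as leucine, and Slc7a5, or LAT1, is known as a route by which leucine reaches mTORC1. Slc7a5 (ENSMUSG00000040010.10, minus strand of chromosome 8 from 121881150 to 121907694) had 39, 147 and 48 counts in ATF4 BKO replicates 1, 2 and 3 and 493 and 256 in WT replicates 1 and 2. These are 1.72, 5.23 and 1.62 CPM against 15.6 and 7.55 CPM. All 3 ATF4 BKO libraries were lower, and ATF4 BKO replicate 2 was the nearest to WT. The ATF4 BKO mean (2.86 ± 2.06 CPM) was 24.7% of the WT mean (11.6 ± 5.69 CPM), the smallest share among the 10 genes. The log2 fold change of Slc7a5 was -2.01 (SE 0.60), with an adjusted p of 0.861 from edgeR, 0.094 from DESeq2 and up to 1.0 over the other alternatives. It lay between -2.78 (without ATF4 BKO replicate 2) and -1.40 (without WT replicate 1) when each library was left out, and was -2.17 and -2.22 within the name prefixes.

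Slc7a8 (LAT2, ENSMUSG00000022180.7, minus strand of chromosome 14 from 54722209 to 54781946) varied most among the ATF4 BKO mice. It had 16.5, 104.9 and 40.5 CPM in ATF4 BKO replicates 1, 2 and 3, a 6.34-fold range that encloses the WT values of 33.4 and 27.2 CPM. The log2 fold change of 0.83 (SE 0.71, edgeR adjusted p = 0.936) rests on ATF4 BKO replicate 2 and was -0.07 without it. Of the summed TPM of both exchangers, Slc7a5 gave 10.8%, 5.46% and 4.42% in the ATF4 BKO libraries and 38.7% and 30.1% in the WT libraries. The groups were far apart on this share, with means of 6.91 ± 3.44% and 34.4 ± 6.10% and a difference of -27.5 percentage points (exact permutation test, two-sided, p = 0.2, the smallest possible). Each library left out in turn gave differences between -31.8 and -23.2 points.

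**Figure D2:**
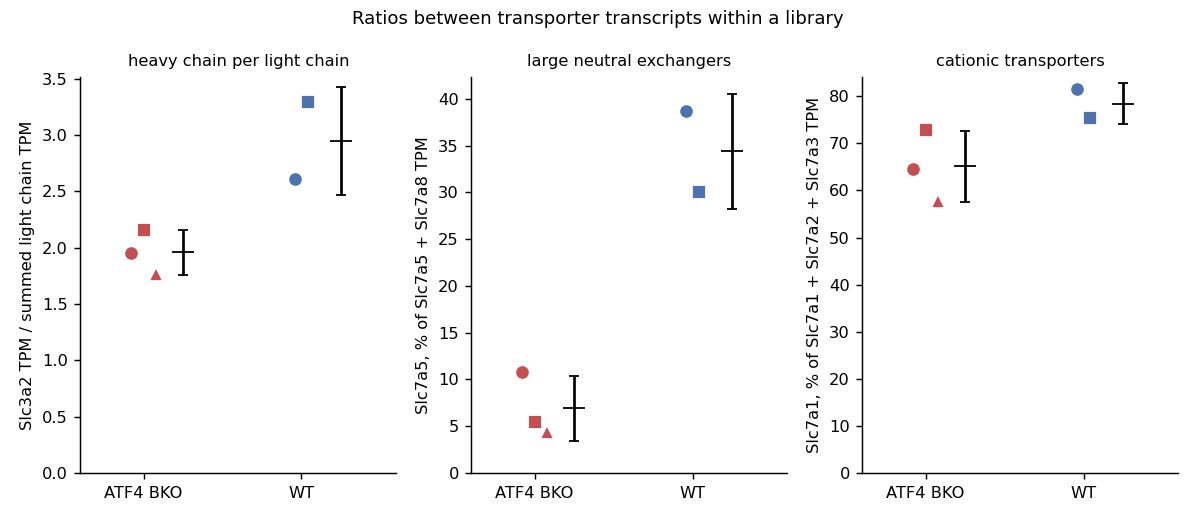
Ratios between transporter transcripts within each library: Slc3a2 TPM per summed light chain TPM (left), Slc7a5 as a percentage of Slc7a5 and Slc7a8 TPM (middle) and Slc7a1 as a percentage of the 3 cationic transporters (right). Points are libraries (circle, square and triangle for replicates 1, 2 and 3), with mean and SD in black beside them. In each panel the 3 ATF4 BKO points lie below both WT points, most widely for Slc7a5 (at most 10.8% against at least 30.1%). Slc7a5 and Slc7a1, the numerators of the middle and right panels, are also the genes whose own CPM did not overlap between the groups. By TPM, Slc7a3, which is part of the sum in the right panel, did not overlap either (0.42, 0.21 and 0.49 in ATF4 BKO libraries against 1.18 and 0.78 in WT libraries).

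Slc7a11, or xCT, exports glutamate in exchange for cystine and so feeds glutathione synthesis. Its gene (ENSMUSG00000027737.10, minus strand of chromosome 3 from 49892526 to 50443614) had 15, 59 and 22 counts in ATF4 BKO replicates 1, 2 and 3 and 207 and 59 in WT replicates 1 and 2. In CPM, ATF4 BKO replicate 2 (2.10) lay above WT replicate 2 (1.74), so the groups overlapped and WT replicate 1 (6.56) alone was well above the others. The log2 fold change was -1.82 (SE 0.72), with an adjusted p of 0.911 from edgeR, 0.598 from DESeq2 and between 0.265 and 1.0 over the alternatives. Without WT replicate 1 the value was -0.57, and without ATF4 BKO replicate 2 it was -2.54. Its log2 ratio was -2.25 for the first name prefix and -1.21 for the other.

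Sequence upstream of the transcription start was examined for the element TGATGNAA, the core of the C/EBP-ATF response element to which ATF4 binds as a heterodimer. It was searched on both strands in the 250 bases before each RefSeq start (GRCm38.p6). Windows were found for 7 of the 10 genes, while Slc7a2, Slc7a3 and Slc7a5 had none. Of 32851 windows of this length over all genes, 1134 (3.45%) held at least 1 match and 13 (0.04%) at least 2. The window of Slc7a11 held 2 matches that do not overlap each other, TGATGCAA on its own strand at bases -66 to -59 and TTGCATCA, the same letters on the other strand, at -47 to -40. Slc7a7 held 1 match in each of 2 of its 5 windows, and the windows of Slc7a1, Slc7a6, Slc7a8, Slc7a10 and Slc3a2 held none. Shown 5′ to 3′ on the strand of the gene, with matches in capitals, are the window with 2 matches, the first window of Slc7a7 with 1 match in a gene whose groups overlapped, and the first window of Slc7a1, which held none in a gene that DESeq2 called.
Slc7a11, chr3:50443614-50443863, minus strand: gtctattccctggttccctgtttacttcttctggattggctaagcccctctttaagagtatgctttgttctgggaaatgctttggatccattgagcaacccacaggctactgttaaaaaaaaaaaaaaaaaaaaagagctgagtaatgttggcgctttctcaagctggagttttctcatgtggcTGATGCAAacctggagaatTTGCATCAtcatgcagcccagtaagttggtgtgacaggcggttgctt
Slc7a7, chr14:54417945-54418194, minus strand: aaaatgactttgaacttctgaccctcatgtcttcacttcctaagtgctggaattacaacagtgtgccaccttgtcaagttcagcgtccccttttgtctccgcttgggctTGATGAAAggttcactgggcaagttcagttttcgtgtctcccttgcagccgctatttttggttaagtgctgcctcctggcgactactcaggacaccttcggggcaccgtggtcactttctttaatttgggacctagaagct
Slc7a1, chr5:148399905-148400154, minus strand: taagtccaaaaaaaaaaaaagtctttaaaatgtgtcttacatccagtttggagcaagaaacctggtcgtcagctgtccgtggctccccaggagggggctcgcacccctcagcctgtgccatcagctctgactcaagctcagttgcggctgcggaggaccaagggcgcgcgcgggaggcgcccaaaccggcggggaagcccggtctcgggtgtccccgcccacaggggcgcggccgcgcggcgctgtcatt
Of these 3 genes, Slc7a11 had a log2 fold change of -1.82, Slc7a7 of 0.18 and Slc7a1 of -1.83. Without WT replicate 1 the values were -0.57, -0.14 and -1.33 in the same order. A link between matches and fold changes was not tested. A match describes the letters alone, and elements elsewhere in the genes were not searched.

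The remaining light chains differed little between the groups. Slc7a6 (y+LAT2, ENSMUSG00000031904.5, chromosome 8 from 106168857 to 106198706), which exchanges cationic for neutral amino acids, had 124.4, 109.6 and 133.7 CPM in ATF4 BKO replicates 1, 2 and 3 and 127.6 and 110.3 in WT replicates 1 and 2. It was the steadiest of the 10, with a 1.22-fold range among ATF4 BKO mice and a log2 fold change of 0.04 (SE 0.15, edgeR adjusted p = 0.980). Slc7a7 (y+LAT1, ENSMUSG00000000958.10, chromosome 14 from 54369442 to 54417780) has the same kind of exchange and is also known from macrophages. It had 6.11, 8.48 and 5.30 CPM against 4.37 and 7.31 CPM, a log2 fold change of 0.18 (SE 0.33, edgeR adjusted p = 0.967). With the muscle covariate this value was 1.19 (edgeR adjusted p = 0.304). The 5 libraries ranked in the same order by Slc7a7 as by the summed CPM of 12 macrophage markers, which was 846.2, 1431 and 517.2 in the ATF4 BKO libraries and 207.9 and 1178 in the WT libraries. The part of macrophages in this gene was not tested. Slc7a10 (Asc-1, ENSMUSG00000030495.12, chromosome 7 from 35186385 to 35201114), an exchanger of small neutral amino acids also known from white adipocytes, had 6.18, 17.3 and 7.79 CPM against 8.48 and 7.19. ATF4 BKO replicate 2 was the single high library, and the log2 fold change of 0.41 (SE 0.46, edgeR adjusted p = 0.942) was -0.15 without it. Of the 31-base words of Slc7a10 transcripts, 14.9% also occur in other genes, chiefly Lrp3 on the opposite strand, and these shares were 5.91% for Slc7a7 (Oxa1l, opposite strand) and 8.78% for Slc7a2 (chiefly Gm26584, opposite strand). The strand setting of the counting is not given in the sources used here. Counts of these 3 genes are thus less certain than those of Slc7a5 and Slc7a6, which share 0% of their words. Slc7a11 (4.27%) and Slc3a2 (4.15%) also share words with other genes, and Slc7a11 overlaps annotated genes on both strands.

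**Figure D3:**
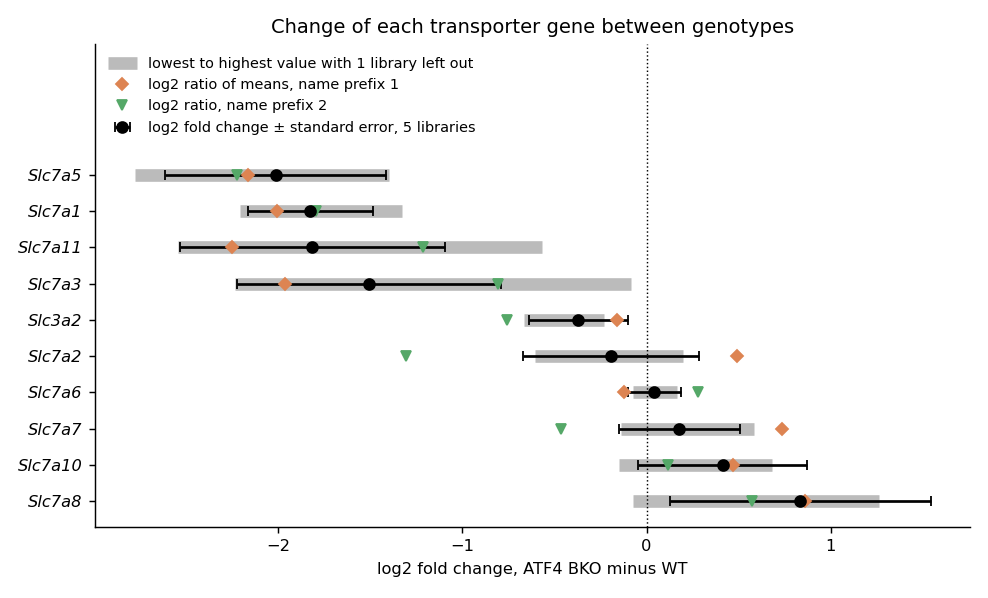
Log2 fold change of each gene (ATF4 BKO minus WT) with its standard error as black points and bars, the range over leaving out each library as grey bands, and the log2 ratios within both name prefixes in colour. The grey bands of Slc7a5, Slc7a1, Slc7a11, Slc7a3 and Slc3a2 stay below 0, and those of the other 5 genes cross it.

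The mean log2 CPM of the muscle markers was higher in both WT libraries than in every ATF4 BKO library. Muscle level and genotype therefore cannot be told apart in these 5 libraries, also not by a covariate. Of 22 skeletal muscle markers, 21 were tested and 18 were lower in every ATF4 BKO library (10.6% of all genes). Over all 22 markers the summed levels were between 124.6 and 373.5 CPM in ATF4 BKO mice and 154.1 and 2782 CPM in WT replicates 1 and 2. The ATF4 BKO sums were mostly Mb, or myoglobin, which brown fat is also known to express (332.5, 68.8 and 303.8 CPM against 11.4 and 135.6), and without Mb, a choice made after seeing the data, they were 40.97, 55.82 and 41.86 CPM against 142.7 and 2646. Mybpc1 was at 0 in 2 ATF4 BKO libraries and Myh7 in 1. Slc7a1, Slc7a3, Slc7a5 and Slc7a11 were all higher in WT replicate 1 than in WT replicate 2, by 1.81-, 4.4-, 2.07- and 3.77-fold. In a fit with muscle level as a covariate, the log2 fold changes were -2.21 for Slc7a1, -2.16 for Slc7a5, -2.60 for Slc7a11 and -2.93 for Slc7a3. In that fit 0 of the 10 passed the threshold, beside 184 of all genes, 176 of them higher in ATF4 BKO mice. Without WT replicate 2 they were -2.21, -2.47, -2.50 and -2.23, and without ATF4 BKO replicate 1 they were -1.79, -1.76, -1.54 and -1.59. For the other members, leaving out WT replicate 2 gave log2 fold changes of -0.315 for Slc3a2, 0.197 for Slc7a2, -0.071 for Slc7a6, 0.581 for Slc7a7, 0.664 for Slc7a8 and 0.276 for Slc7a10. Leaving out ATF4 BKO replicate 1 gave -0.240, -0.133, 0.033, 0.235, 1.262 and 0.679 for the same genes in that order. The muscle covariate gave 0.134, 1.035, -0.275, 1.192, 1.371 and 0.808. Slc7a2 and Slc7a6 thus turned sign without WT replicate 2, and Slc7a2, Slc7a6 and Slc3a2 with the covariate. The labelled tissue matched its markers, since all 10 brown adipocyte markers were detected, at a summed level between 14070 and 17560 CPM in ATF4 BKO mice and of 13870 and 15680 CPM in WT mice, and their median log2 fold change was 0.09.

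Counted per transcript, Slc7a1 and Slc7a5 were each carried by 1 main form. Of the 61 transcripts, 27 passed the filter and 18 were at 0 in all libraries. With edgeR, 0 of the 27 passed the threshold (0% of 44452 transcripts tested) and 6 had an unadjusted p under 0.05 (4.29% of all), while DESeq2 called 1 (0.958% of all). That 1 was Slc7a1-201, the full-length coding transcript with at least 97.7% of the gene's counts in each library, which had 162.8, 288.1 and 164.6 counts in ATF4 BKO replicates 1, 2 and 3 against 1113.4 and 660.6 in WT replicates 1 and 2. The log2 fold change of this transcript was -1.85 (SE 0.37), with an adjusted p of 0.819 from edgeR and 0.00432 from DESeq2. Slc7a5-201 held at least 95.2% of the counts of Slc7a5 and had a log2 fold change of -1.99 (SE 0.66). The retained-intron form Slc7a5-202 was at 0 in all ATF4 BKO libraries and had 11.2 and 12.2 counts in the WT libraries. Slc7a11-201, with between 67.6% and 93.6% of the counts of its gene, had a log2 fold change of -2.07 (SE 0.85), whereas the retained-intron form Slc7a11-202 had -0.07 (SE 0.93) at no more than 11.1 counts per library. The few counts of Slc7a3 fell on different forms in different libraries, with Slc7a3-201 at 22.4 and 0 counts in WT replicates 1 and 2 and Slc7a3-203 at 0 and 6.3.

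Slc7a2 showed a split between transcripts that its gene total hides. Slc7a2-201 had 0 counts in all 3 ATF4 BKO libraries and 18.7 and 54.5 in WT replicates 1 and 2, while Slc7a2-203, which starts further downstream, had 35.0, 66.8 and 22.6 counts against 27.5 and 27.6. Slc7a2-202, a coding form that starts close to Slc7a2-201, had 0, 5.0 and 6.4 counts in ATF4 BKO replicates 1, 2 and 3. It had 0 in both WT libraries and was under the filter. Kallisto thus gave a few counts to a form with the upstream start in ATF4 BKO replicates 2 and 3, and 0 in replicate 1. By rounded counts, Slc7a2-201 took 41.3% (95% Wilson interval 28.3% to 55.7%) of the gene in WT replicate 1 and 65.9% (55.1% to 75.2%) in WT replicate 2. In ATF4 BKO replicates 1, 2 and 3, 0 of 35, 72 and 29 counts allow a share of up to 8.57%, 4.17% and 10.3% (3 counts of the total). These limits cover counting error alone, not how Kallisto divides reads between forms that overlap. Slc7a2-201 did not pass the threshold (adjusted p = 0.876 with edgeR and 0.0762 with DESeq2). Its counts were highest in WT replicate 2, the library with the most muscle RNA, and the part of muscle in them was not tested.

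For Slc3a2, 2 forms held most counts. Slc3a2-201 took between 38.98% and 46.66% and Slc3a2-207 between 46.39% and 52.62% of the gene's counts, with ranges that overlapped between the groups and counting intervals of at most 1.77 points to either side. Slc3a2-203, a short coding form, was lower in every ATF4 BKO library (39.4, 66.6 and 39.5 counts against 131.5 and 139.8), with a log2 fold change of -1.20 (SE 0.36) and adjusted p-values of 1.0 from edgeR and 0.272 from DESeq2. Slc3a2-205, another short form, had 1.5, 48.2 and 29.2 counts in ATF4 BKO libraries and 0 in both WT libraries (DESeq2 adjusted p = 0.175). Over all 27 transcripts, every ATF4 BKO library lay below WT for 6 and above it for 3, beside 10.5% and 9.77% of all transcripts tested.

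**Figure D4:**
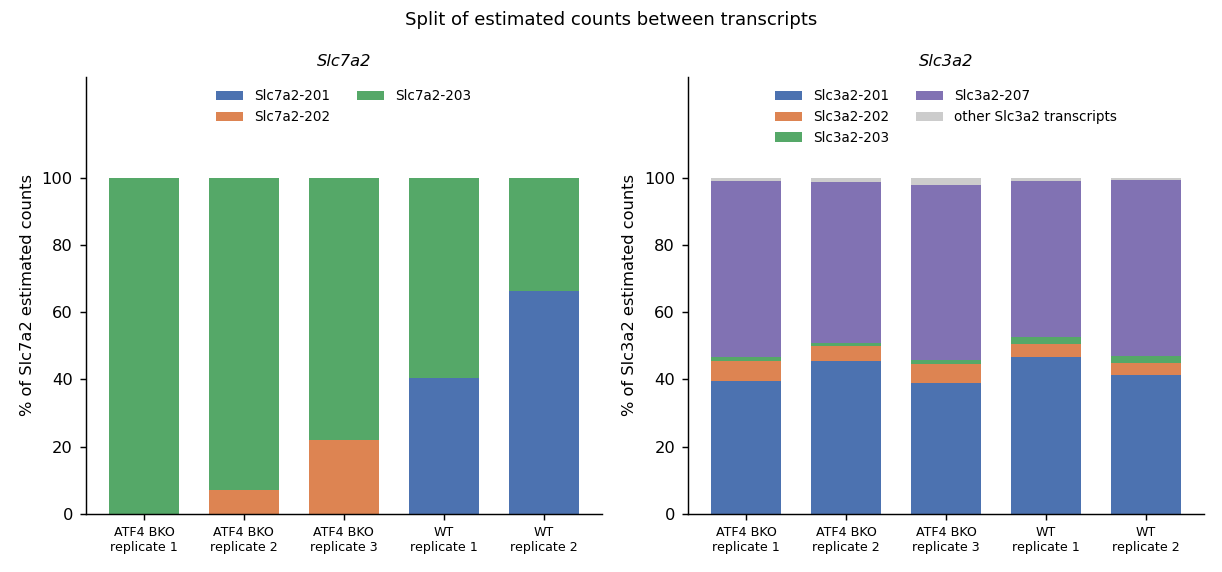
Share of the estimated counts of Slc7a2 (left) and Slc3a2 (right) that Kallisto gave to each transcript, as stacked bars per library in percent. Slc7a2-201 is absent from the 3 ATF4 BKO bars and takes part in both WT bars, whereas the main forms of Slc3a2 keep similar shares in all 5.

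Genes with the most similar pattern were ranked by the root mean square (RMS) difference of centred log2 CPM over the 5 libraries, among all genes tested. For Slc7a1 they were Plscr2 (0.166), Atf5 (0.211) and Aldh18a1 (0.228). Atf5, a transcription factor of the stress response, had 89.7, 127.9 and 99.8 CPM in the ATF4 BKO libraries against 419.2 and 280.9 in the WT libraries, and Aldh18a1, an enzyme of proline synthesis, had 6.71, 8.36 and 4.17 against 29.4 and 11.2. For Slc7a5 they were Gm11714 (0.213), the stress-response pseudokinase Trib3 (0.321) and Slc7a11 (0.352). For Slc7a11 they were the cytokine receptor Tnfrsf12a (0.109), the choline kinase Chka (0.125) and the sterol acyltransferase Soat2 (0.266). The pattern of Slc3a2 was flatter and nearest to Sh2d5 (0.063), the cytoplasmic actin gene Actb (0.063) and the interleukin receptor Il6ra (0.068).

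Genes that act beside these transporters were described by lists. Among 22 amino acid response genes, all tested, 19 were below 0 with a median log2 fold change of -1.08 (all genes 0.0077), and 14 were lower in every ATF4 BKO library (10.6% of all genes). DESeq2 called 8 of the 22, beside 0.608% of all genes lower. These were Fgf21 (-3.57), Mthfd2 (-3.33), Phgdh (-2.81), Chac1 (-2.44), Psat1 (-2.40), Trib3 (-2.27), Atf5 (-1.73) and Asns (-1.44), which cover a secreted hormone, serine, asparagine and one-carbon synthesis, glutathione breakdown and stress signalling. With edgeR, 0 of the 22 passed the threshold and 12 had an unadjusted p under 0.05, beside 5.23% of all genes.

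Other plasma membrane amino acid transporters were mixed. Of 20, 17 were tested, with a median of 0.003, 8 below 0 and 9 above. Of these, 5 were lower in every ATF4 BKO library, beside 10.6% of all genes. The largest differences were those of Slc6a9, a glycine transporter (1.64, 3.05 and 2.33 CPM against 29.0 and 7.92), Slc38a3, a glutamine transporter (log2 fold change -1.95), and Slc1a4, a transporter of alanine, serine and cysteine (-1.10). Slc38a3 had 0.35, 0.68 and 0.40 CPM against 0.73 and 3.01, with WT replicate 1 close to ATF4 BKO replicate 2. Slc1a4 had 1.72, 1.28 and 1.41 CPM against 3.64 and 2.66. DESeq2 called Slc6a9 alone, beside 0.736% of all genes. Of the 7 further SLC7 and SLC3 genes, Slc7a4, Slc7a14 and Slc3a1 were tested, each with at most 0.55 CPM in any library and overlapping groups. Slc7a9 and Slc7a12 were at 0 in all libraries, and Slc7a13 and Slc7a15 had at most 4 counts. Downstream of cystine import, 10 of 14 glutathione and NRF2 genes were below 0 (48.8% of all genes) with a median of -0.26. DESeq2 called Cth alone (0.736% of all genes), which makes cysteine by transsulfuration (3.67, 5.34 and 7.07 CPM against 21.9 and 12.9). Cbs, which acts just before Cth in transsulfuration, had 1.78, 4.101 and 11.75 CPM against 2.32 and 2.83, with overlapping groups and a log2 fold change of 1.19. Gclc (-0.44), Gclm (-0.26) and Gpx4 (0.02), which synthesize or use glutathione, were not called. Srxn1 followed WT replicate 1 as Slc7a11 did, at 354.1 CPM in that library against 75.0 to 100.1 elsewhere. Downstream of arginine import, 12 of 13 enzymes were tested, 6 below 0 and 6 above with a median of 0.06, and 0 were called. Odc1, which makes putrescine from ornithine, was lower in every ATF4 BKO library (83.1, 95.02 and 92.0 CPM against 160.8 and 114.3, log2 fold change -0.61). Gatm, of creatine synthesis, and Arg1, an arginase, had overlapping groups and log2 fold changes of 0.75 and 0.63, the first and second largest of that list.

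**Figure D5:**
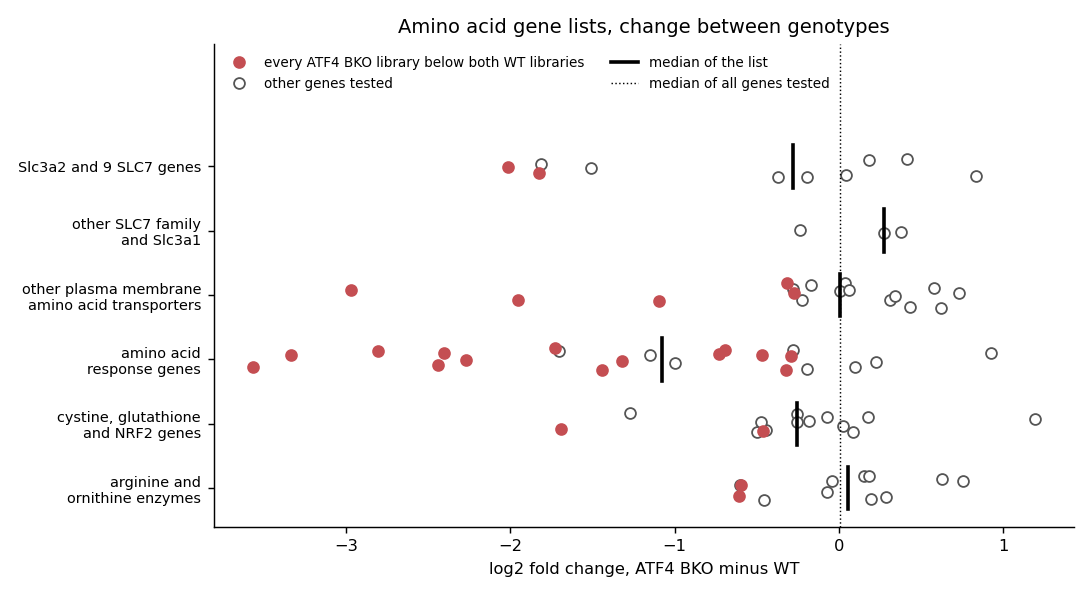
Log2 fold change (ATF4 BKO minus WT) of every tested gene in 6 lists, with a red point where every ATF4 BKO library lies below both WT libraries, list medians as black bars and the median of all genes as a dotted line. Slc7a1 and Slc7a5 are the red points of the top row, and the amino acid response genes hold 14 red points around a median of -1.08.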

How the data were processed

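BAT RNA of 3 ATF4 BKO and 2 WT mice was sequenced from stranded mRNA libraries (1 library per mouse). The authors deposited, for each library, Kallisto 0.45.0 estimated counts per transcript, without normalization between libraries, and TPM, scaled for effective length and library size. The transcript annotation and the strand setting are not given in the sources used here. Other columns of the deposited tables hold transcript and effective lengths.

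Transcripts were matched by identifier to GENCODE M21 (138191 of 141450, the rest holding between 1.16% and 1.29% of counts), and estimated counts and TPM were summed per gene. Rounded gene counts and transcript counts were compared between genotypes with edgeR 4.0.16 in R 4.3.3 (TMM, quasi-likelihood test, genotype as the sole term, at least 10 counts in at least 2 libraries, Benjamini-Hochberg adjustment, threshold 0.05). The common dispersion was 0.0758 with 3 residual degrees of freedom. Alternatives were DESeq2 1.42.0, other scalings and filters, limma 3.58.1 on log2(TPM + 1) and log2(TPM + 0.1), protein-coding transcripts only, leaving out each library, blocks and a muscle covariate. Both count models were tested on simulated data. With 2 WT libraries the spread in that group rests on 1 pair, and p-values measure the spread between these mice.

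The members and lists were chosen with earlier results of these data known. Named beside the members are genes of the amino acid lists that DESeq2 called or that had the 3 largest fold changes of their list, and the 3 genes nearest in pattern to Slc7a1, Slc7a5, Slc7a11 and Slc3a2. Gclc, Gclm and Gpx4, and the cell type markers given by name, were chosen after their values were seen. Of the symbols on the lists, Wdnm1-like had no match.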

Additional observations from a re-analysis of the deposited data

How the results depend on the processing

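With 2 WT libraries, WT replicate 1 weighs heavily on the transporters with the most negative fold changes. Without it the log2 fold changes were -1.33 for Slc7a1, -1.40 for Slc7a5, -0.57 for Slc7a11 and -0.09 for Slc7a3. Depth limits Slc7a2, Slc7a3 and Slc7a11, with between 5 and 207 counts per library.

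Of the members' log2 fold changes under the alternatives, 143 kept their direction and side of the threshold, 16 changed sign without being called, and DESeq2 brought Slc7a1 past it (-1.83). The sign changes were those of Slc7a2 (from -0.61 to 0.20 without single libraries, 0.09 without ATF4 BKO replicate 3, 0.20 without WT replicate 2, 0.085 with the replicate block, 1.03 with the muscle covariate), Slc7a6 (-0.067 with library totals alone, -0.16 on both TPM scales, -0.02 without ATF4 BKO replicate 3, -0.071 without WT replicate 2, up to 0.17 without single libraries, -0.023 with the replicate block, -0.28 with the muscle covariate), Slc7a7 (-0.02 without ATF4 BKO replicate 2, -0.14 without WT replicate 1, up to 0.58 without single libraries), Slc7a8 (-0.071 without ATF4 BKO replicate 2, up to 1.26 without replicate 1), Slc7a10 (-0.15 and 0.68 without the same libraries), and Slc3a2 (0.13 with the muscle covariate). The median of the 10 genes stayed below 0 in all 16 alternatives, between -0.64 and -0.07. The median of all genes moved to -0.10 with library totals alone and to -0.12 and -0.17 on log2(TPM + 1) and log2(TPM + 0.1), where that of the 10 genes was -0.37, -0.29 and -0.40. The 3 ratios kept their direction in each of 7 alternatives.

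Genes called numbered 1 with edgeR, 121 with DESeq2, 8 with no filter beyond 1 count, 0 on log2(TPM + 1), 2 on log2(TPM + 0.1), 0 with the name prefix as a block and 184 with the muscle covariate, and between 0 and 23 without single libraries (23 without WT replicate 1, 0 without each ATF4 BKO replicate). Transcripts called numbered 0 with edgeR and 426 with DESeq2. The cause of these shifts was not tested. The members lower in every ATF4 BKO library numbered between 2 and 4 without single libraries, an alternative chosen after seeing the data: without ATF4 BKO replicate 2 they were Slc7a1, Slc7a5, Slc7a11 and Slc3a2, and without WT replicate 2 Slc7a1, Slc7a3, Slc7a5 and Slc7a11.

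With replicate number as the replicate block, 0 genes and 0 members were called (711 genes at an unadjusted p under 0.05), with 1 residual degree of freedom. The log2 fold changes were then -1.59 for Slc7a1 and -1.80 for Slc7a5. The deviations of libraries with the same number correlated at 0.0473 and 0.2004, and with only 2 pairs no shared source can be read from this.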

Other observations

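Markers of further cell types of BAT were tabulated for the same libraries. All 8 endothelial markers had a log2 fold change above 0 (median 0.36), 4 of them higher in every ATF4 BKO library beside 8.98% of all genes, with summed levels between 1083 and 1382 CPM in ATF4 BKO mice against 859.1 and 1016 CPM in WT mice. Pecam1, an adhesion molecule of endothelial cells, had 202.5, 237.4 and 249.5 CPM against 156.5 and 191.3. All 11 macrophage markers tested were above 0 (median 0.41), yet their groups overlapped, with 517.2 to 1431 CPM in ATF4 BKO libraries against 207.9 and 1178 in the WT libraries. All 8 fibroblast and preadipocyte markers were above 0 too (median 0.40), and their sum was lowest in WT replicate 1 (656.2 CPM) and ATF4 BKO replicate 3 (676.4 CPM). Lymphocyte markers summed to at most 6.69 CPM (median 0.31), and Schwann cell markers to between 233.3 and 294.7 CPM (median 0.43). The 6 adipocyte markers had a median of 0.12, with Adipoq, the adiponectin gene, at 341.2, 287.0 and 378.6 CPM against 202.6 and 256.1. The 5 white adipocyte markers tested had a median of -0.03, with 3 below 0 and 2 above. Of these, 2 were lower in every ATF4 BKO library, Lep and Nnat, beside 10.6% of all genes. Lep, the leptin gene, had 2.12, 0.32 and 2.19 CPM against 12.1 and 6.17 (DESeq2 adjusted p = 0.0837). Agt went the other way, with a log2 fold change of 1.69 and overlapping groups. None of these lists held a gene called by edgeR or DESeq2 at the threshold of 0.05. An unadjusted edgeR p under 0.05 was found for 2 of 8 endothelial, 1 of 6 Schwann cell, 1 of 6 adipocyte and 2 of 5 white adipocyte markers. It was found for 0 of the others, beside 5.23% of all genes. The part of any of these cell types in the levels of the transporters was not tested.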
